A study of Homo sapiens with 4 samples.

Results

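The 40 genes described here act in the G2 phase of the cell cycle and in mitosis. They were taken by gene symbol from a list of known regulators, motors, kinetochore proteins and checkpoint proteins, by a rule that uses no measured value, and make up 40 of the 58051 gene identifiers in each expression table. The list was, however, chosen with earlier results of these data known. All 40 symbols were found, and all 40 passed the filter on low values in both cell lines. It asked for at least 1 TPM (a read number scaled to transcript length and to the library's total) in at least 3 libraries of a line. The study profiled polyadenylated RNA of H441, a line from a human lung adenocarcinoma, and of HT29, a line from a human colorectal adenocarcinoma, both labelled as epithelial cancer cells of WT genotype. Each line was kept for 7 days either in RPMI-1640, a conventional culture medium, or in HPLM, a medium composed to hold nutrients and salts at levels close to those of human plasma. Both media carried 10% fetal bovine serum and 1% P/S, so the serum is shared by every group. GEO lists 4 samples, one for each line and medium. The tables give each sample 3 columns with a number, here called libraries, so that there are 12 libraries. Nothing in the labels tells whether a group's 3 libraries are separate cultures, and the p-values therefore reflect spread between libraries that could be technical only.

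Entry into mitosis is driven by CDK1 bound to cyclin A or B, after CDC25 phosphatases have removed the phosphates that hold it inactive. The Aurora and Polo-like kinases then organise the spindle, the kinetochore links chromosomes to microtubules, and the spindle checkpoint holds the anaphase-promoting complex in check until all chromosomes are attached. Transcripts of most of these genes rise in G2 and fall after division, so in a dividing cancer line their level in bulk RNA follows how many cells are in G2 and mitosis as well as how much RNA each such cell holds. In bulk samples, fewer cells of a type and less RNA per cell cannot be told apart.

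Many promoters of this gene class are known to hold a cell cycle homology region (CHR), often written TTTGAA, near CCAAT boxes, which the factor NF-Y binds. Both were searched on both strands (TTTGAA or TTCAAA, and CCAAT or ATTGG) in RefSeq promoter windows of build GRCh38.p14, each from 250 bases before to 50 bases after a transcription start. The table held 43 windows for 33 of the 40 genes. AURKA, BIRC5, BUB3, FOXM1, TPX2, TTK and UBE2C had no entry. The sequences below are those of genes the results turn on, each the longest stretch within 200 bases upstream of the start that lies outside every exon of the GENCODE v29 basic annotation, on the gene's own strand, 5′ to 3′, with matches in capitals. MKI67 and CDC20 are common measures of dividing cells, TOP2A is the most abundant of the 40 in H441, HJURP had the strongest change in H441 and PTTG1 one of the strongest in HT29, and KIF4A and ECT2 stood among the weakest changes of H441 and HT29 respectively. The stretches lie at chr10:128126424-128126623 (minus strand, MKI67), chr17:40417951-40418096 (minus, TOP2A), chr1:43358781-43358954 (plus, CDC20), chr2:233854567-233854735 (minus, HJURP), chr5:160421655-160421821 (plus, PTTG1), chrX:70289980-70290089 (plus, KIF4A) and chr3:172750526-172750681 (plus, ECT2).
MKI67: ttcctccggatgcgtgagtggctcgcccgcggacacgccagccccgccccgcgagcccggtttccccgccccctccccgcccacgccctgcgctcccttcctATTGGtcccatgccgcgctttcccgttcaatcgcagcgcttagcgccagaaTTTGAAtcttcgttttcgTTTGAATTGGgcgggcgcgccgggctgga
TOP2A: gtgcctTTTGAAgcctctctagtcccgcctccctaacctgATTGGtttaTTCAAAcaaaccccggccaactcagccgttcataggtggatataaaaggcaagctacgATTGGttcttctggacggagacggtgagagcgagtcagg
CDC20: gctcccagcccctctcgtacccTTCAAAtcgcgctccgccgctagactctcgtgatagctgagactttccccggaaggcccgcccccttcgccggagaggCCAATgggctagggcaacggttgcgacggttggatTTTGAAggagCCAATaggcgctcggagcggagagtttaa
HJURP: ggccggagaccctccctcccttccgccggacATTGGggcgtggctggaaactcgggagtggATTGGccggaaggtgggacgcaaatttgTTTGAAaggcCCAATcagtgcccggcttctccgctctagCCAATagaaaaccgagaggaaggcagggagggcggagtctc
PTTG1: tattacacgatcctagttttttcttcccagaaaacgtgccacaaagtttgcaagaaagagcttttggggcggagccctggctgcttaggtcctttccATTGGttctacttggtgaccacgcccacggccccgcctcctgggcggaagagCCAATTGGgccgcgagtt
KIF4A: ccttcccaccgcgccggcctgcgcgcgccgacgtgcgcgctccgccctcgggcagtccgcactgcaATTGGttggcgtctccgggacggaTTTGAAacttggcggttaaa
ECT2: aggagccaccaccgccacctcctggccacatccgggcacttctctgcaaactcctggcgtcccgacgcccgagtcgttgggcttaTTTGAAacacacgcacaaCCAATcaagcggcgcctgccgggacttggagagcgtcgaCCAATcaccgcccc

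In these stretches MKI67 held 2 matches to TTTGAA, the second of which shares bases with a CCAAT match on the other strand, and PTTG1 held no TTTGAA but 3 CCAAT matches, 2 of which overlap in a palindrome. KIF4A and ECT2, among the weakest changes of H441 and HT29 respectively, held both motifs, as did HJURP, the strongest change of H441. TTTGAA stood in 27 of the 43 windows of the 40 genes (62.8%), against 15.2% of all 35116 windows. CCAAT stood in 32 windows (74.4%, against 34.6% of all), at least 2 copies of it in 44.2% against 10.8%, and both motifs in 51.2% against 5.90%. Counted by gene, 24 of the 33 had a TTTGAA, 27 a CCAAT, 20 both, and CENPE and KIF2C neither. The other spindle and cytokinesis genes had TTTGAA in 65.4% of their windows, and the DNA replication and G1/S genes in 2.27%, while CCAAT stood in 61.4% of the replication windows. In the window nearest to the annotated gene start, 17 of 31 TTTGAA matches began within the 60 bases before the start, as the plot of match positions shows. The 24 genes with TTTGAA had a median log2 change in HPLM of -0.57 in H441, and the 9 genes with a window and no TTTGAA had -0.65. In HT29 these medians were -1.68 and -1.85 with all libraries, and -1.38 and -1.79 without library 1. These matches describe letters in fixed windows and are not measured binding sites.

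**Figure D1:**
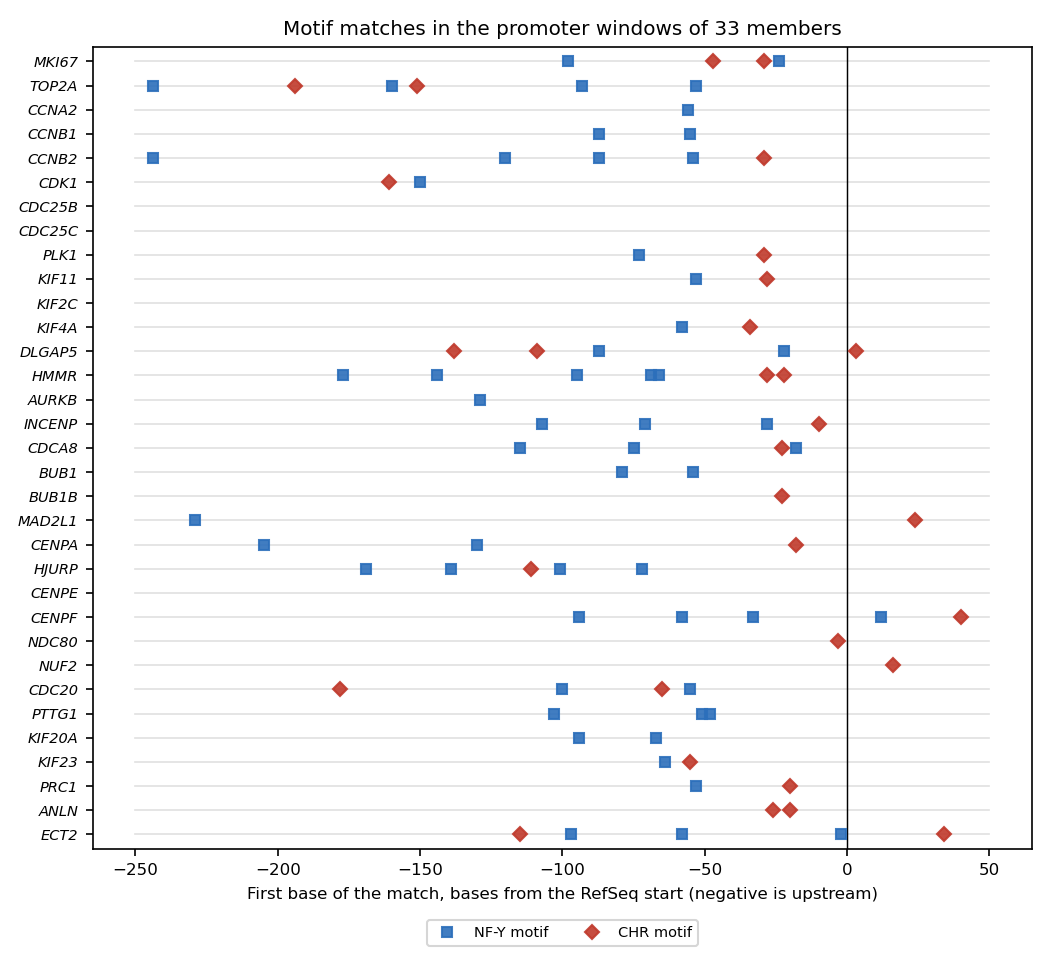
Position of each match to the CHR motif (red diamonds) and to the NF-Y motif (blue squares) on either strand, in bases from the RefSeq start, for the 33 genes with a promoter window (1 window per gene, the one nearest to the annotated gene start). Of the 31 CHR matches, 17 began within the 60 bases before the start.

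Over the genes of the authors' comparison (15405 in H441 and 16126 in HT29), the libraries held 14151527 to 30581810 reads. These were recovered from the deposited normalized values, with the fewest in RPMI-1640 library 1 of HT29. That library stood apart from the other two of its group for many of the 40 genes, so HT29 changes are given with and without it. Members of the list had 342 to 26818 reads per library in H441 and 107 to 14610 in HT29. The lines carried their labelled markers, except that 1 of the 5 colonic markers lay under 1 TPM in HT29 in both media. The 5 lung epithelial markers summed to 2755 to 2835 TPM in the RPMI-1640 libraries and 1066 to 1152 TPM in the HPLM libraries of H441, and to at most 9.21 TPM in HT29. The 5 colonic markers summed to 1881 to 2110 TPM in RPMI-1640 and 1318 to 1517 TPM in HPLM in HT29, and to at most 5.74 TPM in H441, where CDX1 was listed at 0. Of the other lists, 7 leukocyte markers summed to 19.0 to 31.0 TPM in H441 and 1787 to 4384 TPM in HT29, most of it LYZ, which colonic cells can express, with the pan-leukocyte gene PTPRC at 2.00 ± 1.18 TPM (SD, n = 3) in HT29 in RPMI-1640. The 10 fibroblast and endothelial markers summed to 81.1 to 97.8 TPM in H441, mostly COL1A1, LUM and KDR, with the endothelial gene CDH5 under 1 TPM, and to at most 3.23 TPM in HT29. The part of these marker levels in the results was not tested. Mitochondrially encoded genes took 26.3% ± 2.38 of TPM in RPMI-1640 and 19.0% ± 2.29 in HPLM in H441 (SD, n = 3), and 26.1% ± 5.95 and 33.8% ± 4.56 in HT29. With TPM recomputed without them, the median log2 change in HPLM of the 40 genes was -0.69 in H441, and -1.67 in HT29 with all libraries or -1.61 without RPMI-1640 library 1. The library kit keeps no strand, so reads from overlapping genes on opposite strands were not separable.

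H441 cells had less RNA of nearly all these genes in HPLM than in RPMI-1640. Of the 40 genes, 37 fell and none rose (limma on log2(TPM + 1), Benjamini-Hochberg adjusted p under 0.05), where 11.3% of all 16458 genes tested fell and 33.7% rose. All 40 log2 changes were negative, from -1.07 for HJURP to -0.06 for KIF4A, with a median of -0.55, while the median of all genes tested was 0.14. The 40 genes together held 5621, 5708 and 5501 TPM in the RPMI-1640 libraries and 3938, 3679 and 3905 TPM in the HPLM libraries, so the sums did not overlap. The median gene stood at 67.8% of its mean level in RPMI-1640, and 2 genes, HJURP and DLGAP5, at 50% or less. Libraries of one group lay close together, with a median coefficient of variation of 2.495% in RPMI-1640 and 4.28% in HPLM. The 3 HPLM libraries lay below the 3 RPMI-1640 libraries for 38 of the 40 genes, against 15.6% of all genes tested, and the groups of KIF4A and HMMR overlapped. The count depended on scaling. With trimmed-mean (TMM) factors, which bring the median of all genes to 0.00, 40 of the 40 fell with a median of -0.71, against 22.7% of all genes lower and 22.4% higher. By edgeR on the recovered reads all 40 fell too, against 27.3% of all genes lower and 28.5% higher, and in the authors' deposited table all 40 were called lower, against 24.5% of its genes lower and 23.8% higher.

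In HT29 most of the same genes were lower in HPLM, and the first RPMI-1640 library stood apart from the other two. With all 6 libraries, 33 of the 40 genes fell and none rose (limma, same threshold), against 3.58% of 16352 genes lower and 2.53% higher. Without RPMI-1640 library 1, 38 fell and none rose, against 21.4% of 17273 genes lower and 17.8% higher. The filter of that fit asked for 1 TPM in fewer libraries, so more genes were tested. All 40 log2 changes were negative in both fits, with a median of -1.81 (range -2.36 to -0.53) with all libraries and -1.68 (range -2.51 to -0.27) without library 1, and the median of all genes tested was -0.07 and 0.00. The 40 genes together held 4738, 3476 and 3444 TPM in the RPMI-1640 libraries 1 to 3 and 1159, 1109 and 996 TPM in the HPLM libraries. The median gene stood in HPLM at 29.6% of the mean of RPMI-1640 libraries 2 and 3, 36 genes at or below 50% and 6 at or below 25%. Against the mean of all 3 RPMI-1640 libraries the median was 27.5%, with 38 genes at or below 50% and 14 at or below 25%, so the last count depended on library 1. The HPLM libraries lay below all 3 RPMI-1640 libraries for 39 of the 40 genes (20.5% of all genes tested), and below libraries 2 and 3 for 39 (33.5%). ECT2 was the exception both times. The count with all 6 libraries depended on which libraries were kept: 19 genes passed without RPMI-1640 library 3, and 0 without RPMI-1640 library 2 or without any one HPLM library, although 36 to 40 of the genes had an unadjusted limma p under 0.05 in each of these fits and all 40 changes stayed negative. Few genes of any kind passed there: 93 of 17075 lower and 54 higher without RPMI-1640 library 3. In the other fits 0 to 4 of 17032 to 17206 genes were lower and 0 to 1 higher. Of all genes tested, 2607 to 3745 had an unadjusted limma p under 0.05 in these fits. By edgeR on the recovered reads with all libraries 36 fell, against 5.86% of all genes lower and 5.28% higher, and in the authors' deposited table there were 38 called lower, against 11.9% of its genes lower and 9.24% higher.

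**Figure D2:**
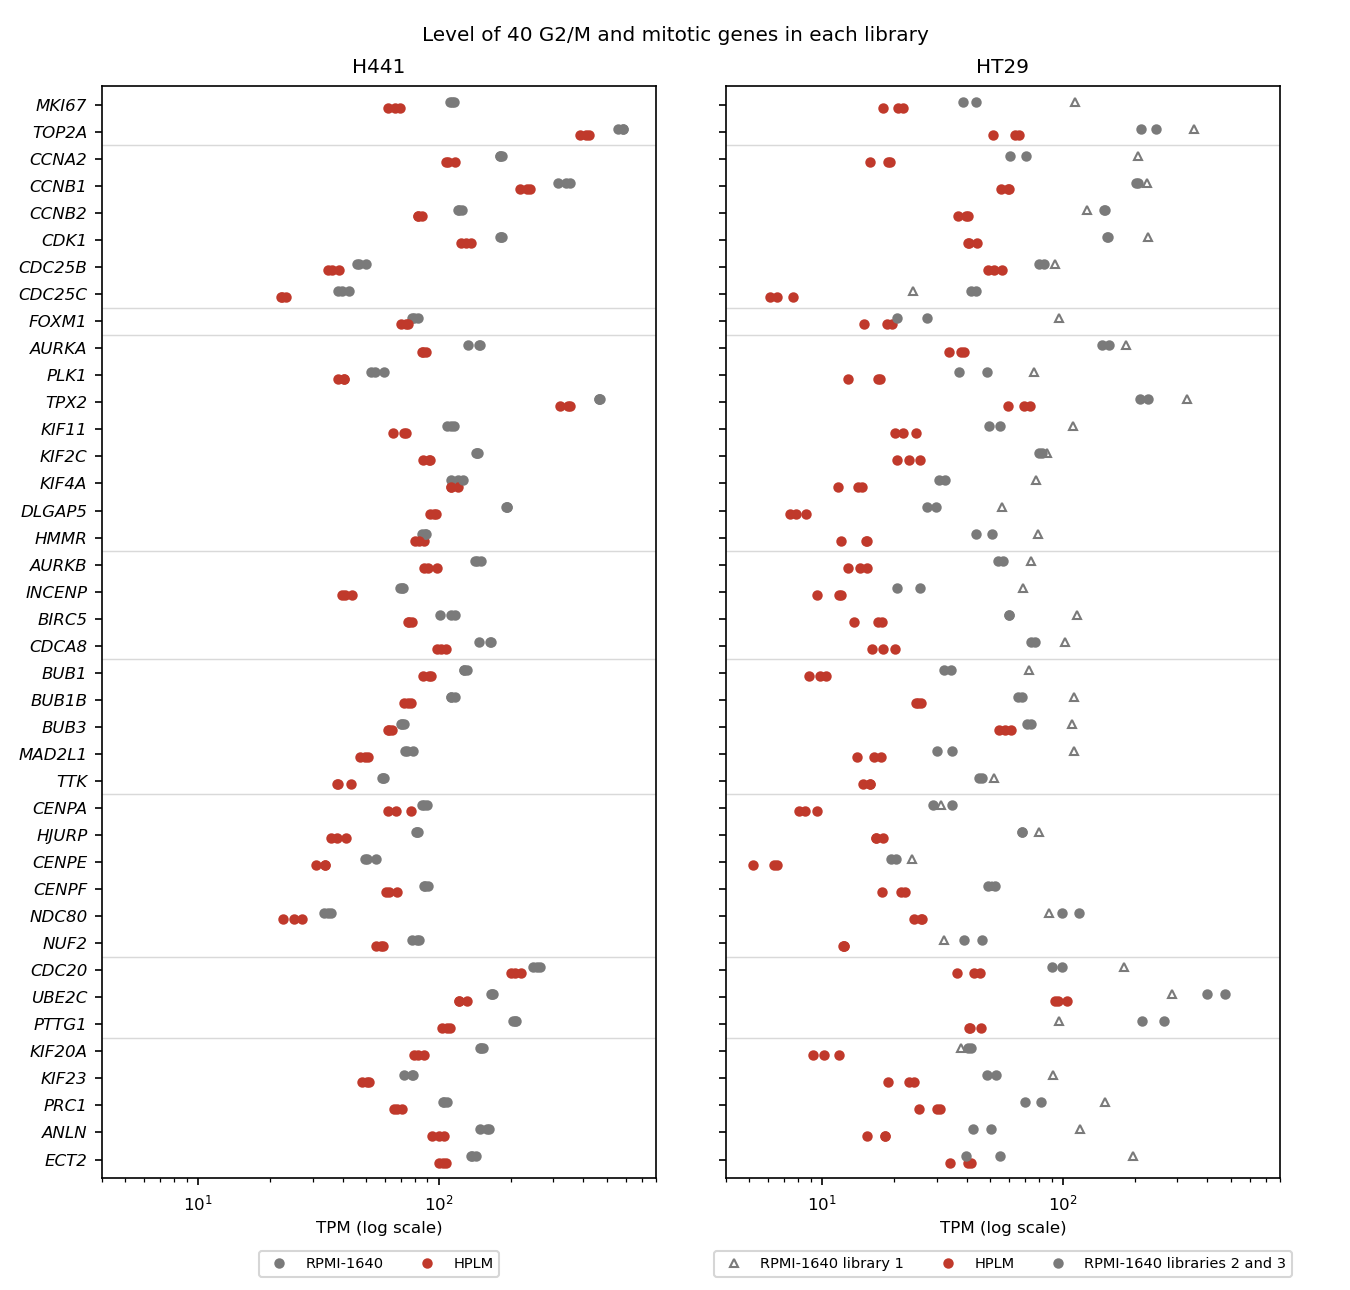
TPM (log axis) of each of the 40 genes in every library of H441 (left) and HT29 (right): grey for RPMI-1640, red for HPLM, and an open triangle for RPMI-1640 library 1 of HT29. The 3 HPLM libraries lie below the 3 RPMI-1640 libraries for 38 genes in H441 and 39 in HT29.

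**Figure D3:**
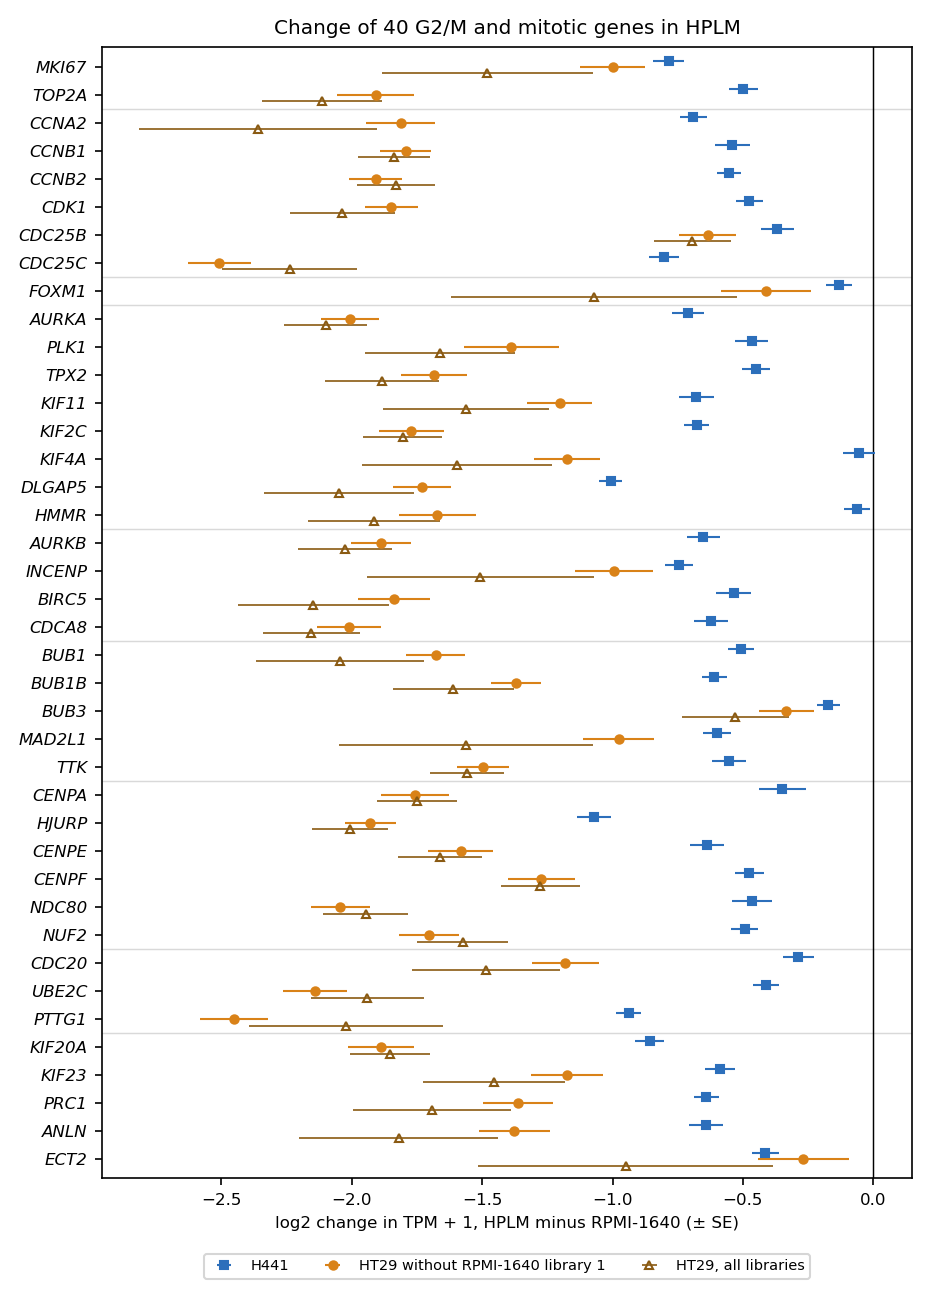
Log2 change in TPM + 1 (HPLM minus RPMI-1640) of each gene with its limma standard error, for H441 (blue squares), HT29 without RPMI-1640 library 1 (orange circles) and HT29 with all libraries (brown triangles). All points lie left of 0, with medians of -0.55, -1.68 and -1.81.

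The 2 markers of cycling chromatin fell in both lines, MKI67 in HT29 by limma when library 1 was left out and not with all libraries. MKI67 encodes Ki-67, the coat protein of mitotic chromosomes that pathologists stain to count dividing cells. It stood at 112, 116 and 113 TPM in the RPMI-1640 libraries and 69.5, 61.8 and 65.7 TPM in the HPLM libraries of H441. It changed by -0.79 ± 0.06 (SE, limma adjusted p = 5.03e-04). The media did not overlap in H441. In HT29 it stood at 113, 43.5 and 38.8 TPM in the RPMI-1640 libraries and 21.6, 20.6 and 18.0 TPM in the HPLM libraries, so library 1 was 2.75 times the mean of the other two. Its change there was -1.48 ± 0.41 (SE, limma adjusted p = 0.0862) with all libraries, which did not pass by limma (edgeR on the recovered reads gave -1.55, edgeR adjusted p = 0.0430, with a range of 2.36e-09 to 0.282 over the alternatives), and -0.9997 ± 0.12 (SE, limma adjusted p = 0.00246) without library 1. TOP2A, the topoisomerase that untangles sister DNA, was the most abundant of the 40 in H441, at 585, 586 and 554 TPM in the RPMI-1640 libraries and 424, 387 and 409 TPM in the HPLM libraries. Its log2 change there was -0.50 ± 0.06 (SE, limma adjusted p = 0.00155). Its HT29 levels were 350.0, 245 and 212 TPM in the RPMI-1640 libraries and 66.1, 63.2 and 51.6 TPM in the HPLM libraries. The change there was -2.11 ± 0.23 (SE, limma adjusted p = 0.0118) with all libraries and -1.91 ± 0.15 (SE, limma adjusted p = 6.40e-04) without library 1. TOP2A thus fell to 70.7% of its RPMI-1640 mean in H441 and to 26.4% of libraries 2 and 3 in HT29.

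All 6 genes of the cyclin and CDK1 group fell in H441 and in HT29, with or without library 1. CCNB1, cyclin B1, the partner of CDK1 at mitotic entry, stood at 340.0, 352 and 315 TPM in the RPMI-1640 libraries and 241, 217 and 233 TPM in the HPLM libraries of H441 and changed by -0.54 ± 0.07 (SE, limma adjusted p = 0.00220). HT29 held 224, 205 and 203 TPM in the RPMI-1640 libraries and 59.5, 59.7 and 55.3 TPM in the HPLM libraries, and here library 1 lay close to the other two. Its change in HT29 was -1.84 ± 0.14 (SE, limma adjusted p = 0.00714) with all libraries and -1.79 ± 0.10 (SE, limma adjusted p = 3.02e-04) without library 1, nearly the same. CDK1, the kinase itself, stood at 181, 183 and 179 TPM in the RPMI-1640 libraries and 136, 124 and 131 TPM in the HPLM libraries of H441, a log2 change of -0.48 ± 0.05 (SE, limma adjusted p = 0.00145). It was at 227, 154 and 152 TPM in the RPMI-1640 libraries and 44.2, 40.9 and 40.4 TPM in the HPLM libraries in HT29, where it changed by -2.04 ± 0.20 (SE, limma adjusted p = 0.0104) with all libraries and by -1.85 ± 0.10 (SE, limma adjusted p = 2.89e-04) without library 1. The HPLM levels of CDK1 lay far below every RPMI-1640 library in HT29, and less far below in H441. The phosphatases CDC25C and CDC25B, which activate CDK1, both fell. CDC25C stood at 38.4, 42.7 and 39.7 TPM in the RPMI-1640 libraries and 23.2, 22.2 and 22.5 TPM in the HPLM libraries of H441. The log2 change was -0.80 ± 0.06 (SE, limma adjusted p = 4.37e-04). In HT29 it stood at 24.03, 43.9 and 41.6 TPM in the RPMI-1640 libraries and 7.56, 6.52 and 6.09 TPM in the HPLM libraries, with library 1 the lowest of the RPMI-1640 libraries. Its change, -2.24 ± 0.26 (SE, limma adjusted p = 0.0125) with all libraries and -2.51 ± 0.12 (SE, limma adjusted p = 2.43e-04) without library 1, was the strongest of the 40 in the second fit. CDC25B stood at 46.6, 49.8 and 46.0 TPM in the RPMI-1640 libraries and 36.1, 34.8 and 38.8 TPM in the HPLM libraries of H441. It changed by -0.37 ± 0.06 (SE, limma adjusted p = 0.00608). Its HT29 levels were 92.7, 84.0 and 79.6 TPM in the RPMI-1640 libraries and 56.3, 51.9 and 48.9 TPM in the HPLM libraries, and it changed by -0.70 ± 0.15 (SE, limma adjusted p = 0.0464) with all libraries and -0.64 ± 0.11 (SE, limma adjusted p = 0.00696) without library 1, among the 4 weakest changes there. The cyclins CCNA2 and CCNB2 fell, with log2 changes of -0.69 and -0.55 in H441. In HT29 theirs were -2.36 and -1.83 with all libraries and -1.81 and -1.91 without library 1.

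FOXM1, a transcription factor known to drive many G2/M genes, did not pass the limma test in either line, but passed in some alternatives. In H441 it stood at 77.9, 82.0 and 79.4 TPM in the RPMI-1640 libraries and 73.2, 70.1 and 74.8 TPM in the HPLM libraries, a log2 change of -0.13 ± 0.05 (SE, limma adjusted p = 0.0775), with the groups just apart. With TMM factors the change in H441 was -0.29 (limma adjusted p = 0.00247), past the threshold. Over the 13 alternatives other than the authors' deposited table its adjusted p ran from 1.20e-06 (edgeR) to 0.204 (limma). That table gave -0.29 (the authors' adjusted p = 2.38e-09). HT29 held 96.5, 27.4 and 20.6 TPM in the RPMI-1640 libraries and 18.6, 19.5 and 15.0 TPM in the HPLM libraries, with library 1 at 4.02 times the mean of the other two. Its change there was -1.07 ± 0.55 (SE, limma adjusted p = 0.288) with all libraries and -0.41 ± 0.17 (SE, limma adjusted p = 0.107) without library 1. By edgeR on the recovered reads without library 1 it passed at -0.41 (edgeR adjusted p = 0.00211), and over the 18 alternatives for HT29 the adjusted p ran from 0.00211 to 0.560. All 3 HPLM libraries lay below each RPMI-1640 library in HT29 as well, but the lowest RPMI-1640 library stood close to the highest HPLM library.

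The 8 genes around Aurora A, Polo-like kinase 1 and spindle assembly held both the strong and the weak end of the H441 response. In H441 6 of the 8 fell, and in HT29 7 fell with all libraries and 8 without library 1. AURKA, the kinase of the spindle poles, stood at 147, 149 and 133 TPM in the RPMI-1640 libraries and 86.3, 85.2 and 88.8 TPM in the HPLM libraries of H441. The log2 change was -0.71 ± 0.06 (SE, limma adjusted p = 7.27e-04). In HT29 it stood at 183, 146 and 156 TPM in the RPMI-1640 libraries and 37.9, 39.0 and 33.8 TPM in the HPLM libraries. In this line it changed by -2.10 ± 0.16 (SE, limma adjusted p = 0.00714) with all libraries and by -2.01 ± 0.11 (SE, limma adjusted p = 3.15e-04) without library 1. PLK1, a kinase needed from mitotic entry to cytokinesis, stood at 52.6, 59.1 and 54.3 TPM in the RPMI-1640 libraries and 40.7, 38.1 and 40.5 TPM in the HPLM libraries of H441. It changed by -0.47 ± 0.06 (SE, limma adjusted p = 0.00283). The media did not overlap for either kinase in H441. In HT29 PLK1 stood at 76.3, 48.8 and 37.3 TPM in the RPMI-1640 libraries and 17.5, 17.0 and 12.9 TPM in the HPLM libraries. The change there was -1.66 ± 0.29 (SE, limma adjusted p = 0.0298) with all libraries and -1.39 ± 0.18 (SE, limma adjusted p = 0.00296) without library 1. DLGAP5, a microtubule-bundling protein also called HURP, stood at 193, 191 and 192 TPM in the RPMI-1640 libraries and 97.5, 92.2 and 95.8 TPM in the HPLM libraries of H441, or 49.5% of its RPMI-1640 mean, a log2 change of -1.01 ± 0.04 (SE, limma adjusted p = 1.55e-04). Its HT29 levels were 56.2, 29.8 and 27.4 TPM in the RPMI-1640 libraries and 8.58, 7.78 and 7.40 TPM in the HPLM libraries, and it changed by -2.05 ± 0.29 (SE, limma adjusted p = 0.0175) with all libraries and by -1.73 ± 0.11 (SE, limma adjusted p = 4.29e-04) without library 1. DLGAP5 lay lower in each of the 6 HT29 libraries than in any H441 library. KIF4A and HMMR were the exceptions in H441. KIF4A, a chromosome-bound motor, stood at 120.1, 127 and 113 TPM in the RPMI-1640 libraries and 120.5, 113 and 113 TPM in the HPLM libraries. The log2 change was -0.06 ± 0.06 (SE, limma adjusted p = 0.508). HMMR, a spindle-pole protein that also binds hyaluronan, stood at 85.1, 88.7 and 87.6 TPM in the RPMI-1640 libraries and 87.1, 80.2 and 82.9 TPM in the HPLM libraries. It changed by -0.06 ± 0.05 (SE, limma adjusted p = 0.367). The media overlapped for both genes, although with TMM factors both changed by -0.22 and passed (limma adjusted p = 0.0128 for KIF4A and 0.0116 for HMMR). Over the 13 alternatives other than the authors' deposited table, the edgeR or limma adjusted p ran from 9.21e-05 to 0.874 and from 1.07e-04 to 0.643. That table called both lower (the authors' adjusted p = 7.08e-06 for KIF4A and 3.41e-05 for HMMR). In HT29 the media did not overlap for either. KIF4A stood there at 77.4, 32.5 and 30.7 TPM in the RPMI-1640 libraries and 14.7, 14.1 and 11.7 TPM in the HPLM libraries. HMMR stood at 79.0, 51.2 and 43.8 TPM in the RPMI-1640 libraries and 15.4, 15.3 and 12.05 TPM in the HPLM libraries. KIF4A changed there by -1.60 ± 0.36 (SE, limma adjusted p = 0.0557) with all libraries, short of the threshold, and by -1.17 ± 0.13 (SE, limma adjusted p = 0.00159) without library 1. HMMR changed by -1.91 ± 0.25 (SE, limma adjusted p = 0.0146) and -1.67 ± 0.15 (SE, limma adjusted p = 9.28e-04) in the same fits. The other members, TPX2, KIF11 and KIF2C, which activate Aurora A, push spindle poles apart and depolymerise microtubules respectively, fell, with log2 changes of -0.45, -0.68 and -0.68 in H441. In HT29 theirs were -1.88, -1.56 and -1.80 with all libraries and -1.68, -1.20 and -1.77 without library 1.

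The chromosomal passenger complex, which corrects faulty attachments and later marks the cleavage plane, had 4 genes on the list. All 4 fell in H441, with log2 changes from -0.75 (INCENP, the scaffold) to -0.54 (BIRC5, survivin), and AURKB, its kinase, and CDCA8, borealin, at -0.65 and -0.62. In HT29 without library 1 all 4 fell as well, from -2.01 (CDCA8) to -0.99 (INCENP). With all libraries BIRC5, AURKB and CDCA8 fell, at -2.15, -2.03 and -2.15, while INCENP was -1.51 ± 0.44 (SE, limma adjusted p = 0.0959) and did not pass. INCENP was also the subunit for which library 1 lay farthest from the other two, at 68.6, 25.7 and 20.6 TPM in the RPMI-1640 libraries and 11.98, 11.8 and 9.56 TPM in the HPLM libraries.

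All 5 checkpoint genes fell in H441, but BUB3 only slightly. BUB3, which docks the checkpoint proteins on the kinetochore and is also used outside mitosis, stood at 70.3, 72.1 and 69.9 TPM in the RPMI-1640 libraries and 63.9, 61.7 and 62.4 TPM in the HPLM libraries, a log2 change of -0.17 ± 0.04 (SE, limma adjusted p = 0.0232). It did not pass in 5 of the 6 fits that left out 1 library, that is without HPLM library 1, 2 or 3 or RPMI-1640 library 1 or 2 (limma adjusted p from 0.0494 to 0.0817 over the 6 fits), and passed with TMM factors at a log2 change of -0.33. HT29 held 109.8, 74.3 and 71.4 TPM in the RPMI-1640 libraries and 61.1, 57.6 and 54.3 TPM in the HPLM libraries. In this line it changed by -0.53 ± 0.21 (SE, limma adjusted p = 0.178) with all libraries and by -0.33 ± 0.10 (SE, limma adjusted p = 0.0479) without library 1. BUB3 was the most even of the 40 between lines and media, at 54.3 to 109.8 TPM over all libraries. The kinases BUB1 and TTK and the checkpoint proteins BUB1B and MAD2L1 fell, with log2 changes of -0.51, -0.55, -0.61 and -0.60 in H441. In HT29 theirs were -2.05, -1.56, -1.61 and -1.56 with all libraries and -1.68, -1.50, -1.37 and -0.98 without library 1. With all HT29 libraries BUB3 and MAD2L1 did not pass, MAD2L1 at -1.56 ± 0.49 (SE, limma adjusted p = 0.113), with library 1 at 112 TPM against 34.9 and 30.1 TPM.

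All 6 centromere and kinetochore genes fell in both lines and in both HT29 fits. HJURP, the chaperone that loads the centromeric histone, stood at 80.6, 81.2 and 82.2 TPM in the RPMI-1640 libraries and 35.8, 37.7 and 41.3 TPM in the HPLM libraries of H441, with the strongest change of the 40 there, at -1.07 ± 0.06 (SE, limma adjusted p = 2.85e-04). In HT29 it stood at 80.1, 68.0 and 68.2 TPM in the RPMI-1640 libraries and 17.9, 16.7 and 16.8 TPM in the HPLM libraries. The change there was -2.01 ± 0.15 (SE, limma adjusted p = 0.00714) with all libraries and -1.93 ± 0.10 (SE, limma adjusted p = 2.69e-04) without library 1. Its client CENPA, the centromeric histone H3 variant, changed by -0.35 ± 0.09 (SE, limma adjusted p = 0.0238) in H441. In HT29 CENPA changed by -1.75 ± 0.15 (SE, limma adjusted p = 0.00915) with all libraries and by -1.76 ± 0.13 (SE, limma adjusted p = 5.88e-04) without library 1. CENPA did not pass in H441 without HPLM library 1 or 2 or without any one RPMI-1640 library (limma adjusted p from 0.0112 to 0.0791 over the 6 fits that left out 1 library). NDC80, a microtubule-binding subunit of the kinetochore, stood at 34.6, 33.6 and 35.8 TPM in the RPMI-1640 libraries and 27.2, 25.04 and 22.5 TPM in the HPLM libraries of H441. The log2 change was -0.47 ± 0.08 (SE, limma adjusted p = 0.00587). Its HT29 levels were 87.9, 99.5 and 117 TPM in the RPMI-1640 libraries and 26.1, 25.9 and 24.3 TPM in the HPLM libraries, and it changed by -1.95 ± 0.16 (SE, limma adjusted p = 0.00891) with all libraries and by -2.04 ± 0.11 (SE, limma adjusted p = 3.15e-04) without library 1. NDC80 was the least abundant of the 40 in H441 in RPMI-1640 and was higher in HT29 there. Its partner NUF2 and the corona proteins CENPE and CENPF fell, with log2 changes of -0.49, -0.64 and -0.48 in H441. In HT29 theirs were -1.57, -1.66 and -1.28 with all libraries and -1.70, -1.58 and -1.27 without library 1.

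All 3 genes of the anaphase-promoting complex and its targets on the list fell in both lines. CDC20, its mitotic activator, stood at 258, 264 and 247 TPM in the RPMI-1640 libraries and 208, 199.6 and 221 TPM in the HPLM libraries of H441. It changed by -0.29 ± 0.06 (SE, limma adjusted p = 0.0114), and just missed the threshold without RPMI-1640 library 1 (limma adjusted p = 0.0504, with a range of 0.0209 to 0.0504 over the 6 fits). HT29 held 179.9, 99.7 and 90.8 TPM in the RPMI-1640 libraries and 42.8, 45.3 and 36.6 TPM in the HPLM libraries. In this line it changed by -1.49 ± 0.28 (SE, limma adjusted p = 0.0366) with all libraries and by -1.18 ± 0.13 (SE, limma adjusted p = 0.00164) without library 1. UBE2C, the ubiquitin-conjugating enzyme of the complex, stood at 168, 167 and 165 TPM in the RPMI-1640 libraries and 131, 122 and 122 TPM in the HPLM libraries of H441, a log2 change of -0.41 ± 0.05 (SE, limma adjusted p = 0.00203). In HT29 it had the highest mean of the 40 in both media, at 285, 397 and 474 TPM in the RPMI-1640 libraries and 104, 92.9 and 96.1 TPM in the HPLM libraries. The change there was -1.94 ± 0.22 (SE, limma adjusted p = 0.0125) with all libraries and -2.14 ± 0.12 (SE, limma adjusted p = 3.36e-04) without library 1. For UBE2C library 1 was the lowest RPMI-1640 library, where TOP2A and TPX2 stood above it, and still lay far above HPLM. PTTG1, securin, the substrate whose loss frees separase, stood at 204, 210.2 and 207 TPM in the RPMI-1640 libraries and 109, 103 and 111 TPM in the HPLM libraries of H441. The log2 change was -0.94 ± 0.05 (SE, limma adjusted p = 2.05e-04). In HT29 it stood at 96.6, 214 and 264 TPM in the RPMI-1640 libraries and 46.0, 41.4 and 41.0 TPM in the HPLM libraries, the gene for which library 1 was lowest relative to the other two. PTTG1 changed there by -2.02 ± 0.37 (SE, limma adjusted p = 0.0346) with all libraries and by -2.45 ± 0.13 (SE, limma adjusted p = 2.89e-04) without library 1, to 17.9% of libraries 2 and 3.

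Of the 5 genes of the central spindle and cytokinesis, 5 fell in H441 and 4 in HT29 in both fits. KIF20A, the motor that carries passenger proteins to the central spindle, stood at 149.8, 153 and 148 TPM in the RPMI-1640 libraries and 81.8, 78.8 and 87.1 TPM in the HPLM libraries of H441. It changed by -0.86 ± 0.05 (SE, limma adjusted p = 3.29e-04). Its HT29 levels were 38.0, 41.6 and 40.3 TPM in the RPMI-1640 libraries and 11.7, 10.2 and 9.18 TPM in the HPLM libraries, and it changed by -1.85 ± 0.15 (SE, limma adjusted p = 0.00891) with all libraries and by -1.89 ± 0.13 (SE, limma adjusted p = 4.76e-04) without library 1. All 3 RPMI-1640 libraries of HT29 were close for this gene. ECT2, the exchange factor that activates RhoA for the contractile ring, stood at 144, 138 and 136 TPM in the RPMI-1640 libraries and 108, 100.4 and 104 TPM in the HPLM libraries of H441, a log2 change of -0.41 ± 0.05 (SE, limma adjusted p = 0.00207). HT29 held 195, 55.0 and 39.6 TPM in the RPMI-1640 libraries and 40.3, 41.7 and 34.1 TPM in the HPLM libraries, so RPMI-1640 library 3 fell among the HPLM libraries and library 1 lay far above all others. Its change there was -0.95 ± 0.57 (SE, limma adjusted p = 0.356) with all libraries and -0.27 ± 0.17 (SE, limma adjusted p = 0.262) without library 1, and neither passed. By edgeR on the recovered reads without library 1 it passed at -0.26 (edgeR adjusted p = 0.0267), and over the 18 alternatives the adjusted p ran from 0.0267 to 0.790. KIF23, PRC1 and ANLN, which build the midzone and the cleavage furrow, fell, with log2 changes of -0.59, -0.64 and -0.64 in H441. In HT29 theirs were -1.46, -1.69 and -1.82 with all libraries and -1.17, -1.36 and -1.38 without library 1.

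RPMI-1640 library 1 of HT29 did not simply lie higher. It was above both other RPMI-1640 libraries for 31 of the 40 genes (52.8% of all genes tested), below both for 7 (38.5%), and between them for CENPA and CENPF. Its ratio to the mean of libraries 2 and 3 ran from 0.404 for PTTG1 to 4.13 for ECT2, with a median of 1.51. The 7 genes below both were PTTG1, CDC25C, UBE2C, NUF2, NDC80, CCNB2 and KIF20A. The 6 with the highest ratios were ECT2, FOXM1, MAD2L1, CCNA2, INCENP and MKI67. The median coefficient of variation was 28.3% in RPMI-1640 and 10.3% in HPLM. Library 1 also had a lower mitochondrial share (19.3% of TPM) than libraries 2 and 3 (30.2% and 28.8%). In the plot of levels relative to libraries 2 and 3, the HPLM points stay below the triangle of library 1 for all 40 genes.

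**Figure D4:**
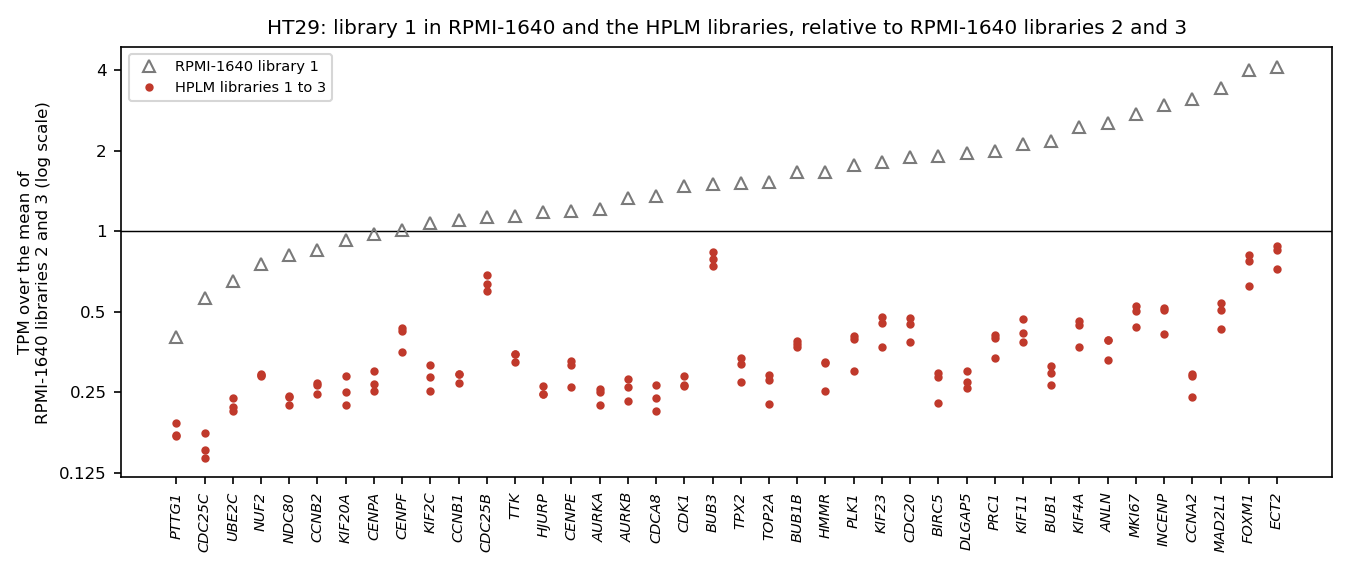
HT29: TPM of RPMI-1640 library 1 (triangles) and of the 3 HPLM libraries (red points) over the mean of RPMI-1640 libraries 2 and 3 (log axis), genes ordered by library 1. Library 1 runs from 0.404 times (PTTG1) to 4.13 times (ECT2) that mean, with a median of 1.51.

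The change in HPLM was larger in HT29 than in H441 for most of these genes. The difference was tested as the interaction of line and medium over the 12 libraries (limma, HT29 change minus H441 change, each change taken within its own table). Its p-values take the spread of a gene to be the same in all groups. The median coefficients of variation in RPMI-1640 and HPLM were 2.495% and 4.28% in H441, and 28.3% and 10.3% in HT29. With all libraries all 40 differences were negative, with a median of -1.15 against -0.21 for all 19212 genes tested, and 27 passed, against 11.4% of all genes lower and 3.00% higher. Without library 1 of HT29, 33 passed, all toward a larger fall in HT29, against 25.9% of 19045 genes lower and 10.1% higher, and 39 differences were negative with a median of -1.06 against -0.14 for all genes. With TMM factors and all libraries the median of all genes was -0.01 and that of the 40 was -0.92. In that fit 27 passed as well, against 1463 of all 19212 genes lower and 1126 higher. HMMR had the largest difference with all libraries, -1.85 ± 0.27 (SE, limma adjusted p = 0.00189), and -1.61 ± 0.15 (SE, limma adjusted p = 6.17e-05) without library 1: it fell in HT29 and did not pass in H441. UBE2C and CDC25C were largest without library 1, at -1.73 ± 0.12 (SE, limma adjusted p = 1.16e-05) and -1.70 ± 0.12 (SE, limma adjusted p = 1.31e-05), and had -1.53 ± 0.22 (SE, limma adjusted p = 0.00210) and -1.44 ± 0.27 (SE, limma adjusted p = 0.00750) with all libraries. At the other end, ECT2 had a difference of -0.54 ± 0.63 (SE, limma adjusted p = 0.630) with all libraries and 0.15 ± 0.18 (SE, limma adjusted p = 0.568) without library 1, BUB3 of -0.36 ± 0.21 (SE, limma adjusted p = 0.301) and -0.16 ± 0.09 (SE, limma adjusted p = 0.188), and MKI67 of -0.69 ± 0.45 (SE, limma adjusted p = 0.352) and -0.21 ± 0.12 (SE, limma adjusted p = 0.211). None of these 3 passed in either fit. The other 4 that did not pass in either fit were CDC25B, FOXM1, INCENP and MAD2L1. CCNA2, KIF11, PTTG1, KIF23, PRC1 and ANLN passed without library 1 and not with all libraries. With all libraries, PLK1, KIF4A, DLGAP5, BUB1B and CDC20 lost the call in 5 to 9 of the 12 fits that left out 1 library, and the other 22 kept it in all 12. Across the 40 genes the changes in the 2 lines were loosely related (Pearson r 0.45, Spearman rho 0.35, without library 1), a description over genes that share libraries and are not independent.

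The lines also differed in level, given here without a test since their tables were deposited separately. In RPMI-1640 the median gene stood in HT29 (libraries 2 and 3) at 0.536 times its mean in H441, and 32 of the 40 were lower in HT29. With library 1 included the median was 0.632 and 34 were lower. In HPLM the median ratio was 0.282, 38 were lower in HT29 and 36 stood at or below 50% of H441. These ratios were not taken over all genes, so the counts do not tell whether the 40 genes differ from others. Mitochondrially encoded genes took 33.8% of TPM in HT29 and 19.0% in H441 in HPLM. The part of that share in the ratios was not tested. The extremes in RPMI-1640 were DLGAP5 at 0.149 and NDC80 at 3.12 times the H441 mean, or 0.197 and 2.92 times with library 1 included. TOP2A led in H441 in both media (575 ± 18.0 and 407 ± 18.5 TPM, SD, n = 3), above TPX2 (464 ± 1.92 and 339.6 ± 17.0 TPM) without overlap. In HT29 UBE2C had the highest mean in both media (385 ± 95.1 and 97.6 ± 5.72 TPM). In RPMI-1640 it overlapped TOP2A and TPX2, both of which stood above it in library 1, and in HPLM TPX2 and TOP2A overlapped each other below it (67.4 ± 7.26 and 60.3 ± 7.66 TPM).

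Other cell cycle lists were set beside the 40 genes, by their counts and medians only. The share of all genes called is to be read beside each: in H441 11.3% lower and 33.7% higher as deposited and 22.7% and 22.4% with TMM factors, and in HT29 3.58% and 2.53% with all libraries and 21.4% and 17.8% without library 1. The 31 other spindle and cytokinesis genes were mostly lower too. In H441 28 fell and 1 rose, the motor KIF18A (log2 change 0.21, limma adjusted p = 0.0393, chosen after its value was seen), with a median log2 change of -0.44, and with TMM factors 30 fell and KIF18A no longer passed. In HT29 without library 1 all 31 fell with a median of -1.39 (27 fell with all libraries). Of the named examples, SPAG5, a spindle and kinetochore adaptor, was -0.89 in H441 (limma adjusted p = 1.76e-04). In HT29 SPAG5 was -1.60 with all libraries (adjusted p = 0.0125) and -1.44 without library 1 (adjusted p = 5.87e-04). CDCA3, a trigger of mitotic entry, was -0.80 in H441 (limma adjusted p = 2.93e-04). In HT29 CDCA3 was -2.04 with all libraries (adjusted p = 0.00953) and -1.89 without library 1 (adjusted p = 4.54e-04). NEK2, a centrosome kinase, was -0.46 in H441 (limma adjusted p = 0.00157). In HT29 NEK2 was -1.90 with all libraries (adjusted p = 0.0125) and -2.12 without library 1 (adjusted p = 3.15e-04). KNSTRN, kinastrin, was -0.45 in H441 (limma adjusted p = 0.00200). In HT29 KNSTRN was -1.74 with all libraries (adjusted p = 0.0118) and -1.90 without library 1 (adjusted p = 3.43e-04).

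The other kinetochore genes were more mixed. In H441 14 of 31 fell and 4 rose (median -0.20), with TMM factors 21 fell and 2 rose, and in HT29 without library 1 18 fell and 1 rose (median -0.43, 7 lower with all libraries). MIS12, a core kinetochore subunit, was 1.01 in H441 (limma adjusted p = 1.56e-04). In HT29 MIS12 was -0.11 with all libraries (adjusted p = 0.680) and -0.07 without library 1 (adjusted p = 0.637). SPC24, a partner of NDC80, was -1.01 in H441 (limma adjusted p = 5.06e-04). In HT29 SPC24 was -1.39 with all libraries (adjusted p = 0.0239) and -1.20 without library 1 (adjusted p = 0.00214). SKA1, which couples kinetochores to shrinking microtubules, was 0.32 in H441 (limma adjusted p = 0.0215). In HT29 SKA1 was -1.84 with all libraries (adjusted p = 0.00921) and -1.77 without library 1 (adjusted p = 6.07e-04). The rise of SKA1 in H441 did not pass with TMM factors (log2 change 0.16). OIP5, a centromere assembly factor, was -0.31 in H441 (limma adjusted p = 0.107). In HT29 OIP5 was -1.60 with all libraries (adjusted p = 0.0168) and -1.38 without library 1 (adjusted p = 5.54e-04). The condensin, cohesin and separase genes fell for 9 of 20 and rose for 5 in H441 (median -0.20). With TMM factors 14 fell and 3 rose there (median -0.35). They fell for 11 and rose for 1 in HT29 without library 1 (median -0.44, 4 lower with all libraries). ESPL1, separase, was -0.65 in H441 (limma adjusted p = 9.24e-04). In HT29 ESPL1 was -1.33 with all libraries (adjusted p = 0.0134) and -1.21 without library 1 (adjusted p = 0.00110). SGO2, a protector of centromeric cohesion, was -0.41 in H441 (limma adjusted p = 0.00199). In HT29 SGO2 was -1.64 with all libraries (adjusted p = 0.0104) and -1.52 without library 1 (adjusted p = 5.76e-04). NCAPD3, a condensin subunit, was -0.66 in H441 (limma adjusted p = 5.03e-04). In HT29 NCAPD3 was -1.04 with all libraries (adjusted p = 0.317) and -0.35 without library 1 (adjusted p = 0.0901).

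Calls among the complexes that the 40 genes work with or answer to went both ways. Of 17 anaphase-promoting complex subunits and cofactors, 4 fell and 3 rose in H441 (median 0.06), against 11.3% and 33.7% of all genes. With TMM factors 7 fell and 2 rose (median -0.10), against 22.7% and 22.4%. Of the same list 3 fell and 2 rose in HT29 without library 1 (median -0.08, 1 lower with all libraries), against 21.4% and 17.8% of all genes. UBE2S, the enzyme that extends ubiquitin chains, was -0.36 in H441 (limma adjusted p = 0.0166). In HT29 UBE2S was -1.04 with all libraries (adjusted p = 0.0229) and -1.11 without library 1 (adjusted p = 0.00204). The subunit CDC16 was 0.68 in H441 (limma adjusted p = 0.00109). In HT29 CDC16 was 0.15 with all libraries (adjusted p = 0.552) and 0.18 without library 1 (adjusted p = 0.214). CDC23 was -0.46 in H441 (limma adjusted p = 0.00223). In HT29 CDC23 was -0.45 with all libraries (adjusted p = 0.285) and -0.24 without library 1 (adjusted p = 0.222). ANAPC16 was 0.38 in H441 (limma adjusted p = 0.00564). In HT29 ANAPC16 was -0.15 with all libraries (adjusted p = 0.790) and -0.47 without library 1 (adjusted p = 0.0187). Of 13 MuvB, MYB and DREAM subunits, which bind the CHR or E2F sites of cell cycle promoters, 1 fell and 3 rose in H441 (median 0.01). With TMM factors 3 fell and 2 rose (median -0.13). In all 2 fell and 2 rose in HT29 without library 1 (median 0.09, 1 lower with all libraries). MYBL2, B-MYB, was -0.56 in H441 (limma adjusted p = 5.23e-04). In HT29 MYBL2 was -1.14 with all libraries (adjusted p = 0.385) and -0.24 without library 1 (adjusted p = 0.195). The MuvB core subunit LIN9 was -0.05 in H441 (limma adjusted p = 0.690). In HT29 LIN9 was -1.03 with all libraries (adjusted p = 0.0482) and -0.82 without library 1 (adjusted p = 0.00490). LIN54, another, was 0.03 in H441 (limma adjusted p = 0.774). In HT29 LIN54 was -0.86 with all libraries (adjusted p = 0.0763) and -0.67 without library 1 (adjusted p = 0.0150). RBL1, p107, was 0.46 in H441 (limma adjusted p = 0.00396). In HT29 RBL1 was -0.18 with all libraries (adjusted p = 0.892) and 0.59 without library 1 (adjusted p = 0.0300).

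The inhibitors of G2 and mitotic entry were mixed in H441 and mostly lower in HT29 without library 1. Of 14 tested of 15 listed, 4 fell and 6 rose in H441 (median -0.07), against 11.3% and 33.7% of all genes, and with TMM factors 6 fell and 6 rose. In HT29 9 fell and 1 rose without library 1 (median -0.78), against 21.4% and 17.8% of all genes, and 2 fell with all libraries (median -0.85). The difference between lines passed for 8 of the 14 without library 1, all toward HT29 being lower (25.9% of all genes), and for 3 with all libraries (11.4%). GADD45A, a stress-induced inhibitor of CDK1, was 0.81 in H441 (limma adjusted p = 4.37e-04). In HT29 GADD45A was -0.29 with all libraries (adjusted p = 0.741) and -0.83 without library 1 (adjusted p = 0.00275). Its relative GADD45B was 0.59 in H441 (limma adjusted p = 8.35e-04). In HT29 GADD45B was -0.72 with all libraries (adjusted p = 0.594) and -1.63 without library 1 (adjusted p = 5.69e-04). SFN, stratifin, which keeps CDK1 complexes in the cytoplasm, was -0.70 in H441 (limma adjusted p = 4.77e-04). In HT29 SFN was -1.53 with all libraries (adjusted p = 0.0131) and -1.39 without library 1 (adjusted p = 0.00121). BTG2, an antiproliferative gene, was -0.23 in H441 (limma adjusted p = 0.397). In HT29 BTG2 was -1.45 with all libraries (adjusted p = 0.0503) and -1.81 without library 1 (adjusted p = 2.81e-04). The DNA replication and G1/S genes mostly fell in H441 and were split in HT29 without library 1. In H441 28 of 38 fell and 1 rose (median -0.34), while in HT29 without library 1 8 fell and 9 rose (median 0.08). With TMM factors 34 fell and 1 rose in H441 (median -0.50), against 22.7% and 22.4% of all genes. In HT29 without library 1, 11 fell and 14 rose with TMM factors (median 0.11), against 4276 and 4255 of 17273 genes. With all HT29 libraries 1 fell and none rose, with a median of -0.65 and 37 of 38 changes negative, so the direction of the median rested on library 1. The difference between lines, HT29 minus H441, passed for 17 higher and 4 lower without library 1 (10.1% and 25.9% of all genes), and for 2 lower with all libraries (11.4%). PCNA, the replication clamp, was -0.92 in H441 (limma adjusted p = 5.31e-04). In HT29 PCNA was -0.56 with all libraries (adjusted p = 0.659) and 0.27 without library 1 (adjusted p = 0.106). MCM5, a subunit of the replicative helicase, was -0.46 in H441 (limma adjusted p = 0.00188). In HT29 MCM5 was 0.03 with all libraries (adjusted p = 0.984) and 0.96 without library 1 (adjusted p = 0.00229). CDC6, which loads that helicase, was 0.61 in H441 (limma adjusted p = 5.86e-04). In HT29 CDC6 was -1.44 with all libraries (adjusted p = 0.108) and -0.91 without library 1 (adjusted p = 0.00244). CDC6 was thus the one gene of the list that rose in H441.

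**Figure D5:**
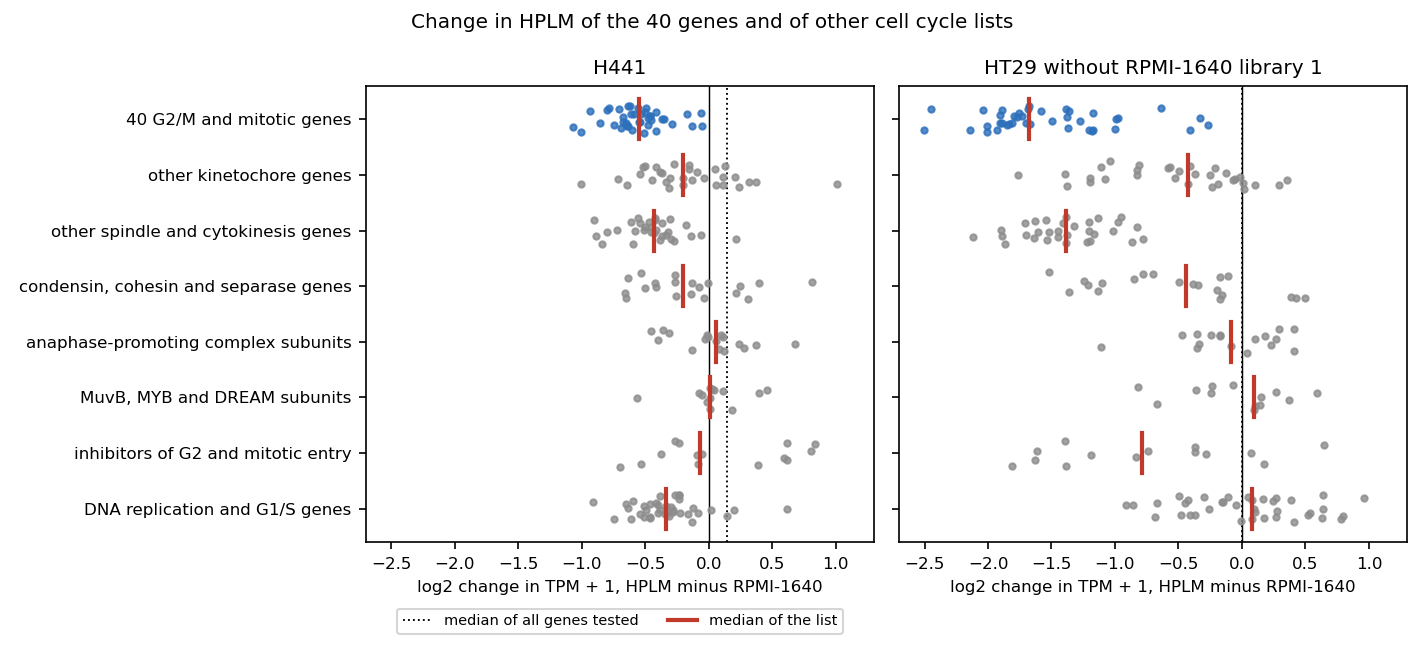
Log2 change in TPM + 1 (HPLM minus RPMI-1640) of each gene of the 40 and of 7 other cell cycle lists in H441 (left) and in HT29 without RPMI-1640 library 1 (right), with the median of each list (red bar) and of all genes tested (dotted line). The 40 genes have medians of -0.55 and -1.68, and the DNA replication and G1/S genes of -0.34 and 0.08.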

How the data were processed

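Polyadenylated RNA was sequenced from 4 samples, with 12 libraries grouped by line and medium from the labels. The submitters' processing notes name GRCh38 as the genome build, DESeq2, and the tools STAR (2.5.2b), Trimmomatic (0.36) and Subread (1.5.2). The authors deposited a TPM table per line, and the deposited table of each line's comparison also holds a signal value per library, a normalized read number whose scaling the headers do not state. The authors also deposited log2 fold changes and adjusted p-values of their own comparison.

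The 40 genes and the other lists were chosen with earlier results of these data known. TPM was tested as log2(TPM + 1), a pseudocount of 1, with limma 3.58.1 (R 4.3.3) within each line, over genes with at least 1 TPM in at least 3 libraries. P-values were adjusted over all genes tested by Benjamini-Hochberg, with a threshold of 0.05. The difference between lines was the interaction term over all 12 libraries. Fold changes on this scale understate those of low genes. With 1 factor per library the signal columns gave back whole reads (100% of values whole within 0.01 read), and edgeR 4.0.16 was run on them as an alternative, with a minimum count of 10. Depth, counted over the genes of the authors' comparison only, was 14151527 to 30581810 reads per library. No table column with values of a sample was left unused.

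Library values are given for 8 core genes (MKI67, CCNB1, CDK1, PLK1, TOP2A, FOXM1, CDC20 and AURKA), for the 4 strongest and 4 weakest changes of each line and the 3 largest and smallest differences between lines (HT29 without RPMI-1640 library 1), and for exceptions in a group. From each other list the 2 genes with the smallest adjusted p per line are named, and KIF18A falls outside this rule. Alternatives were the pseudocount (0.1), the filter, TMM factors, median centring, TPM without mitochondrially encoded genes, edgeR, the authors' table, library weights, a replicate block and leaving out each library. The ranges of adjusted p given over alternatives, and their numbers, leave out the authors' table. The fitting code was tested on simulated data. Tables were made with Python 3.11.15, pandas 2.3.3 and scipy 1.17.1, and plots with matplotlib 3.10.9.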

Additional observations from a re-analysis of the deposited data

Results flagged for a closer look

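For 14 of the genes given with values in every library, the interaction test over all 12 libraries found a change in HPLM that differed between the lines (log2, HT29 change minus H441 change). All were toward a larger fall in HT29, where 11.4% of all 19212 genes tested were lower and 3.00% higher. Of all 40 genes, 27 passed in this test. Some of the 14, such as HMMR, UBE2C and CDC25C, have their values given because this difference was large. Others, such as NDC80, KIF4A, DLGAP5, HJURP and KIF20A, have them given for a strong or weak change within a line, which enters the difference. The passing of all these genes is therefore partly set by those choices. The first 5 by size were HMMR (-1.85, limma adjusted p = 0.00189), TOP2A (-1.61, limma adjusted p = 0.00225), CDK1 (-1.56, limma adjusted p = 0.00115), KIF4A (-1.54, limma adjusted p = 0.0291) and UBE2C (-1.53, limma adjusted p = 0.00210). The next were NDC80 (-1.48, limma adjusted p = 5.61e-04), CDC25C (-1.44, limma adjusted p = 0.00750), AURKA (-1.39, limma adjusted p = 5.37e-04), CCNB1 (-1.30, limma adjusted p = 3.31e-04) and CDC20 (-1.20, limma adjusted p = 0.0269). The smallest were PLK1 (-1.20, limma adjusted p = 0.0288), DLGAP5 (-1.04, limma adjusted p = 0.0473), KIF20A (-0.99, limma adjusted p = 0.00189) and HJURP (-0.94, limma adjusted p = 0.00221). Without RPMI-1640 library 1 of HT29 all 14 kept the direction and passed, with differences from -1.73 (UBE2C) to -0.72 (DLGAP5). Of all genes tested, 25.9% were lower and 10.1% higher in that fit. The calls of PLK1, KIF4A, DLGAP5 and CDC20 were lost in 8, 9, 9 and 8 of the 12 fits that left out 1 library, with highest limma adjusted p-values of 0.0757, 0.0767, 0.108 and 0.0724. Groups of 3 libraries are too small for a test of single outlying libraries.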

How the results depend on the processing

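In H441 the count of the 40 genes lower in HPLM, 37, was 34 to 36 in the fits that left out 1 library and 35 to 40 under the other settings. Over all genes, 1858 were lower in the main fit, 1233 to 1666 in the former fits and 1446 to 4190 in the latter. In HT29 the 33 lower genes became 26 without a filter, 30 with a pseudocount of 0.1, and 33 to 40 with the other scalings, edgeR, library weights or the authors' deposited table. Over all genes, 585 were lower in the main fit, 643 without a filter, 498 with that pseudocount and 535 to 4986 otherwise. The most were by edgeR without RPMI-1640 library 1. Leaving out 1 HT29 library gave 0 to 38: 38 without RPMI-1640 library 1, 19 without RPMI-1640 library 3, and 0 without RPMI-1640 library 2 or any one HPLM library. In those fits with 0 calls by limma, 36 to 37 of the 40 genes still had an unadjusted p under 0.05, and edgeR with all libraries called 36. Calls over all genes varied too. Without RPMI-1640 library 1, 3693 of 17273 genes were lower, without library 3, 93 of 17075, and in the rest 0 to 4. No setting called any of the 40 higher in either line. The count that differed between lines, 27, ran from 22 to 33 when 1 library was left out and from 25 to 39 otherwise. Over all genes, 2196 were lower in the main fit and 1337 to 4924 when 1 library was left out. Otherwise 1165 to 7540 were lower, the most with library weights, which also gave the 39.

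With the library number as a replicate block the count was 34 in H441, where 1284 of all 16458 genes were lower. It was 0 in HT29, where the block left 0 of all 16352 genes called at the threshold, 38 of the 40 having an unadjusted limma p under 0.05. The labels state no pairing, and the deviations of same-numbered libraries from their group means had correlations of -0.03 to 0.02 in H441 and -0.10 to 0.17 in HT29. Not every library correlated best with its own number.

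The difference between lines of ECT2, -0.54, changed sign in several settings. It was 0.0023 with library weights and 0.15 without RPMI-1640 library 1 of HT29. Also without that library, it was 0.30 with TMM factors and 0.33 by edgeR (edgeR adjusted p = 0.0109, with a range of 0.0109 to 0.987 over its alternatives). With TMM factors and all libraries it stayed negative, at -0.30. When 1 library was left out it ran from -0.99 to 0.15. That of BUB3, -0.36, was 0.035 by edgeR without that library. TMM and edgeR without library 1 for the difference between lines, and median centring and TPM without mitochondrial genes without library 1, were chosen after seeing the data. The cause of these shifts was not tested. Over all single genes and settings, the direction of the change in HPLM was the same throughout in both lines. In H441 16 values lost the call and 15 gained it, in HT29 190 lost and 42 gained it, and for the difference between lines 43 lost and 40 gained it.

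Each group had 3 libraries, which limits the precision, and the 40 genes had at least 107 reads in every library.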
